A study of Mus musculus with 8 samples.

Results

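The immediate early genes studied here are 10 genes chosen by symbol: Fos, Fosb, Jun, Junb, Egr1, Ier2, Ier3, Atf3, Dusp1 and Myc. All 10 were among the 21532 genes of the deposited table, and all 10 were among the 15989 genes that passed the filter of a mean normalized count of at least 10 over the mice. The table comes from RNA-Seq of the whole liver of male db/db mice on a C57BL/6J background, which carry a mutated leptin receptor and become obese and diabetic. The 4 AF1 peptide mice received AF1 peptide, a synthetic stretch of the estrogen receptor ERα joined to a fluorescein-labelled TAT sequence, which lets peptides cross the cell membrane. The 4 control mice received a control at the same dose, which the study's methods word as control or AF1 peptide. The sources used here do not describe the content of this control injection further. Per the study's methods both groups had the same genotype and chow diet, treatment started at 8 weeks of age, the dose was 5 mg/kg body weight by retro-orbital injection, and 2 injections were given in each of 5 weeks, with glucose and insulin tolerance tests in the later weeks. There was 1 library per mouse and no untreated or lean group. A normalized count is the number of reads of a gene divided by 1 size factor per library.

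Immediate early genes are switched on within minutes of a stimulus, because the proteins that turn them on, such as SRF with its partners and CREB, are already in the cell and only need to be phosphorylated. The mRNAs and proteins are short-lived, so the levels at the time of tissue collection reflect recent signalling. Most of them encode transcription factors, and some, such as Dusp1, encode enzymes that switch the upstream MAP kinases off again. In liver they are known for their response to partial hepatectomy, feeding and fasting, glucagon, growth factors, inflammation and the handling of tissue.

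The sequence just before the start of each gene is shown for 5 members, because a short motif in them is known to take part in the response to cAMP and CREB, and the members that hold it did not move as a group in the mice below. The windows are the 250 bases before the annotated start in RefSeq (GRCm38.p6), 5′ to 3′ on the strand of the gene, and capitals mark the letters TGACG on either strand (CGTCA where it lies on the other strand). They run over chr17:26508473-26508722 (minus strand) for Dusp1, chr12:85473640-85473889 (plus strand) for Fos, chr7:19310046-19310295 (minus strand) for Fosb, chr8:84978749-84978998 (minus strand) for Junb and chr1:191183334-191183583 (minus strand) for Atf3.
Dusp1: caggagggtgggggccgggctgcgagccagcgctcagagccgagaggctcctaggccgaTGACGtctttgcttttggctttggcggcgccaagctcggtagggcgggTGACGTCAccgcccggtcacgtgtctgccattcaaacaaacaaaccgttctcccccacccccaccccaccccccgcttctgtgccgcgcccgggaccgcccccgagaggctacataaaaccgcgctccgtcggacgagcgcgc
Fos: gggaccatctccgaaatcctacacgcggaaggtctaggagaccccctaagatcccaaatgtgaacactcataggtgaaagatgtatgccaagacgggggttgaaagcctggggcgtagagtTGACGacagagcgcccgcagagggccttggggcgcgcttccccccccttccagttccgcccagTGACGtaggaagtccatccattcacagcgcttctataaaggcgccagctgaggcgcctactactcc
Fosb: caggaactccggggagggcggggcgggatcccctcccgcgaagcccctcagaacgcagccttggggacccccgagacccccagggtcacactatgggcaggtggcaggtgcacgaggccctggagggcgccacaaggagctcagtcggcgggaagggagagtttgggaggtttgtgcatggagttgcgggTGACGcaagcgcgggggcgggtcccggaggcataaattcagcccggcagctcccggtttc
Junb: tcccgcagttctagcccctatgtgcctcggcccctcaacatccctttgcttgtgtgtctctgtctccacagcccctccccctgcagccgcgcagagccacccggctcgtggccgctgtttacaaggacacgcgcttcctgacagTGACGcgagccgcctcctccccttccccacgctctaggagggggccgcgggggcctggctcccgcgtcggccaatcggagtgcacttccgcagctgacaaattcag
Atf3: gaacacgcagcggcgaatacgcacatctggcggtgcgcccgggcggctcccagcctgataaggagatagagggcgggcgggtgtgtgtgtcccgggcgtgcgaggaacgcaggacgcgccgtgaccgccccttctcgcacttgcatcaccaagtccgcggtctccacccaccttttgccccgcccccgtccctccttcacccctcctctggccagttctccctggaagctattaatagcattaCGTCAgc

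A window was found for 7 of the 10 genes, and 5 of these 7 held TGACG, against 17.8% of 32851 windows of the same length. Dusp1 held it 3 times, with the first bases 191, 143 and 140 bases before the start. The matches at 143 and 140 bases overlap on opposite strands and form TGACGTCA, the full cAMP response element, which 1.55% of all windows held and Dusp1 alone among the 7 members. Fos held TGACG at 129 and 66 bases before the start, Junb at 106, Fosb at 60 and Atf3 at 7. The AP-1 site TGACTCA was in 4.46% of all windows and in 0 of the 7, and the CArG box of the serum response element, searched on both strands, was in 1.47% and in 0 of the 7. The TATA box letters TATAAA were in 12.4% of all windows and, of the 7, in Fos. Bases outside these windows were not searched, nor were Egr1, Ier2 and Myc, for which no window was found. A match to letters is a description of the sequence and not a site shown to be in use in these livers.

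No difference between AF1 peptide and control mice passed the test for any of the 10 genes. A gene was called higher or lower when the unadjusted p value of limma on log2(normalized count + 1) was under 0.05 and the change was more than 1.3-fold. By this rule 0 of the 10 genes were higher, against 1.79% of all genes tested, and 0 were lower, against 1.9% of all genes tested. Over all genes this made 286 higher and 304 lower, a split that became 122 and 602 when libraries were scaled to equal totals, a change that left the count of members at 0. The groups overlapped for all 10 genes, whereas they did not overlap for 3.9% of all genes tested. At an unadjusted p value under 0.05 without the fold threshold the count was also 0 of 10, against 6.19% of all genes, and edgeR and DESeq2 on the recovered reads called 0 of the 10. The log2 fold change was positive for 6 genes and negative for 4, with a median of 0.11, beside a median of -0.0083 over all genes. With 4 mice against 4, the two-sided exact permutation test of 1 gene cannot give less than p = 0.0286, and its p values over the 10 genes lay between 0.2 and 0.83. After Benjamini-Hochberg adjustment 0 genes of the table were under 0.05 in limma (smallest adjusted p = 0.763) and in edgeR, and 3 in DESeq2, while 990 genes had an unadjusted p value under 0.05 in limma.

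**Figure D1:**
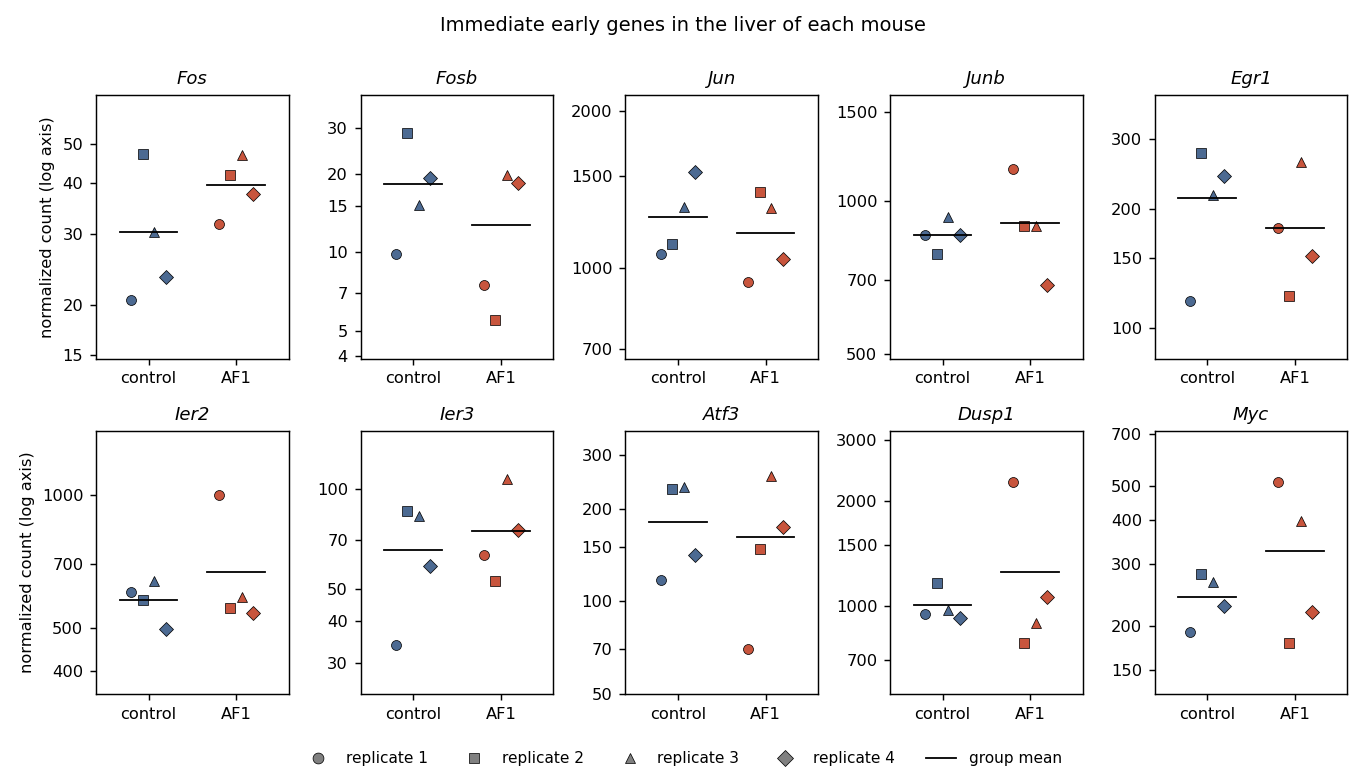
Normalized count (log axis) of each of the 10 immediate early genes in every mouse, with control mice on the left and AF1 peptide mice on the right of each panel. Symbols give the replicate number and lines the arithmetic mean of 4 mice; the 2 groups overlap in all 10 panels, and AF1 peptide replicate 1 (circle) lies above all other mice for Junb, Ier2, Dusp1 and Myc and below them for Jun and Atf3.

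One library stood apart from the other 7, and it touches most of what follows. AF1 peptide replicate 1 was at 74.2 on the first principal component of all genes, which held 39.3% of the variance, while the other mice were between -21.8 and 2.33. It was the highest of the 8 mice for 25.9% and the lowest for 23.4% of all genes tested, and its share of mitochondrial reads was 20.8%, beside 22.4 to 37.8% in the others. Depth was 35260283 to 45117528 reads in control and 23031880 to 43978158 reads in AF1 peptide mice. Of 8 hepatocyte markers, such as Alb and Apoa1, all passed the filter. Their summed normalized count, most of it Alb, was 2488000 to 2691000 in control and 1968000 to 2649000 in AF1 peptide mice, the lowest being AF1 peptide replicate 1. In that mouse Alb, Apoa1 and Ttr were the lowest of the 8, whereas the other 5 markers were the highest, among them the urea cycle enzymes Cps1 and Ass1 and the protease inhibitor Serpina1c at 2.52, 2.43 and 1.80 times the next mouse. Of 8 markers of exocrine and endocrine pancreas, 1 was among the deposited genes, the exocrine marker Cela3b. It was at 12.4 normalized counts or less in every mouse and did not pass the filter. The other pancreas markers, among them all endocrine ones, had no value. In whole liver, fewer cells of a type and less RNA per cell cannot be told apart.

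The FOS and JUN proteins pair through leucine zippers to form AP-1, the factor for which the response is best known. Fos was the AP-1 member with the smallest p value. Its normalized counts were 20.6, 47.3, 30.3 and 23.4 in control mice and 31.7, 42.0, 47.0 and 37.7 in AF1 peptide mice. All 4 AF1 peptide mice were above the control median, but control replicate 2 was the highest of the 8. This gave a log2 fold change of 0.43 (SE 0.28, 95% interval -0.19 to 1.05, limma adjusted p = 0.781). Only 23 to 57 reads per mouse lay behind these values, and counting alone gives a coefficient of variation of 17.6% at that depth.

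Fosb, the closest relative of Fos in the list, was the lowest of the 10 genes. It had normalized counts of 9.89, 28.6, 15.1 and 19.3 in control and of 7.46, 5.48, 19.8 and 18.4 in AF1 peptide mice. AF1 peptide replicates 1 and 2 were below all control mice, and the other AF1 peptide mice lay within the control range. Together they gave a log2 fold change of -0.56 (SE 0.47, 95% interval -1.60 to 0.47, limma adjusted p = 0.820). Only 3 to 29 reads per mouse lay behind Fosb, and its coefficient of variation was 43.3% in control and 57.5% in AF1 peptide mice, beside 31.3% from counting.

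Jun and Junb, the partners of Fos, had far more reads and were better measured, with 764 to 1826 reads of Jun and 490 to 1241 of Junb per mouse. Jun was at 1063, 1110, 1306 and 1529 normalized counts in control mice and at 939, 1395, 1301 and 1041 in AF1 peptide mice. AF1 peptide replicates 1 and 4 were below the lowest control, and the other AF1 peptide mice lay within the control range. Its log2 fold change of -0.10 had a 95% interval of -0.45 to 0.24 (limma adjusted p = 0.902). Junb was at 859, 789, 931 and 858 in control and at 1158, 895, 895 and 685 in AF1 peptide mice, so that the AF1 peptide group held both the highest and the lowest mouse. The log2 fold change of Junb was 0.06 (SE 0.15, 95% interval -0.26 to 0.38, limma adjusted p = 0.944), and -0.03 with libraries scaled to equal totals.

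Egr1, a zinc finger factor induced by growth factors through SRF, was at 117, 277, 217 and 242 normalized counts in control mice. In AF1 peptide mice it was at 179, 121, 262 and 152. The lowest values of both groups nearly coincided (control replicate 1 and AF1 peptide replicate 2). Egr1 had a log2 fold change of -0.25 (SE 0.29, 95% interval -0.89 to 0.40, limma adjusted p = 0.865). It ranged from -0.51 without control replicate 1 to -0.08 without AF1 peptide replicate 2, with no call.

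Ier2 and Ier3 are early response genes outside the AP-1 and EGR families. Ier3, which acts on cell survival and ERK signalling, varied 3.17-fold between its lowest and highest mouse. It was at 33.8, 85.7, 83.2 and 58.6 normalized counts in control and at 63.5, 53.0, 107 and 75.3 in AF1 peptide mice (log2 fold change 0.23, SE 0.32, limma adjusted p = 0.889). Ier2 was at 605, 581, 639 and 497 in control mice and at 1001.3, 557, 588 and 542 in AF1 peptide mice. AF1 peptide replicates 2 to 4 were within the control range and replicate 1 was 1.57 times as high as the next highest of the 8. The log2 fold change of Ier2 was 0.17 (95% interval -0.25 to 0.58, limma adjusted p = 0.856) and -0.04 (95% interval -0.28 to 0.20) without that mouse.

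Atf3, a stress-induced member of the ATF/CREB family that mostly represses its targets, was at 117, 232, 236 and 142 normalized counts in control mice. It was at 69.99, 148, 256 and 174 in AF1 peptide mice. AF1 peptide replicate 1 was the lowest and AF1 peptide replicate 3 the highest of the 8. Its log2 fold change was -0.24 (SE 0.37, 95% interval -1.06 to 0.58, limma adjusted p = 0.902), and it turned to 0.11 (95% interval -0.46 to 0.69) without replicate 1.

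Dusp1, the phosphatase that inactivates the p38, JNK and ERK kinases and so ends the response, had a wide spread among AF1 peptide mice. Control mice were close together, at 950, 1163, 975 and 925 normalized counts. AF1 peptide mice were at 2280, 782, 891 and 1058. Replicate 1 was 1.96 times as high as the next highest mouse, whereas replicates 2 and 3 were below all controls. The mean of the control group was 1003 ± 108 normalized counts (SD, n = 4). The AF1 peptide group averaged 1252 ± 694 (SD, n = 4). The log2 fold change was 0.19 (SE 0.28, 95% interval -0.43 to 0.81, limma adjusted p = 0.898), and it turned to -0.15 (95% interval -0.42 to 0.13) without replicate 1.

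Myc, a driver of growth and ribosome production, was at 191, 281, 267 and 228 normalized counts in control mice and at 512, 179, 397 and 219 in AF1 peptide mice. AF1 peptide replicates 1 and 3 were above all controls and replicate 2 below them. Myc had a log2 fold change of 0.32 (SE 0.30, 95% interval -0.35 to 0.99, limma adjusted p = 0.834) and 0.06 (95% interval -0.46 to 0.58) without replicate 1.

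**Figure D2:**
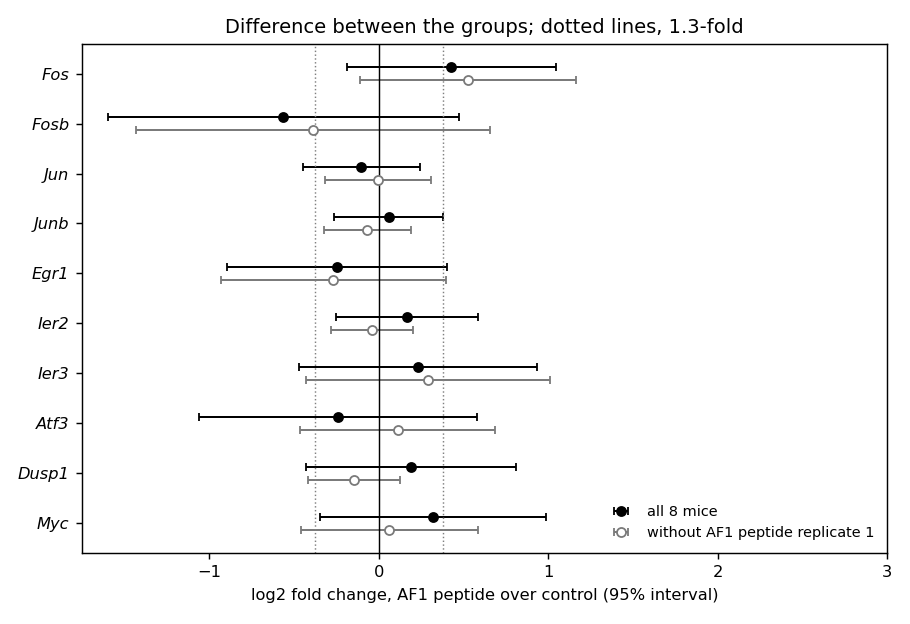
Log2 fold change of each immediate early gene, AF1 peptide over control, with its 95% interval from limma, for all 8 mice (filled) and without AF1 peptide replicate 1 (open). Dotted lines mark 1.3-fold; every interval spans 0, and the signs of Junb, Ier2, Atf3 and Dusp1 turn when that mouse is left out.

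Leaving out AF1 peptide replicate 1 moved the median log2 fold change of the 10 genes from 0.11 to -0.02, with 4 positive and 6 negative values, and still called 0 of 10. Leaving out control replicate 2, the mouse with the highest Fos and Fosb, was the one case that gave a call, and it was Fos with a log2 fold change of 0.66 (limma adjusted p = 0.994).

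The members split in AF1 peptide replicate 1. Relative to the mean log2 value of the other 7 mice, it was higher by 1.25 on the log2 scale for Dusp1, 1.07 for Myc, 0.81 for Ier2 and 0.46 for Junb. It was lower, at -1.35, for Atf3, at -0.92 for Fosb and at -0.40 for Jun. Fos, Egr1 and Ier3 were within 0.1 of the other mice, at -0.09, -0.07 and -0.08. In the sequences above, TGACG stands before Dusp1 and Junb, which were high, before Atf3 and Fosb, which were low, and before Fos, at -0.09. The windows without it were those of Jun, at -0.40, and Ier3, at -0.08. Myc and Ier2, which were high, and Egr1 had no window, so whether the motif goes with the direction was not tested. Past the nearest other mouse by more than 1.5-fold, AF1 peptide replicate 1 was high in 2 of 10 members (20%) and low in 1 of 10 (10%), beside 3.37% and 6.57% of all genes tested.

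The same mouse was extreme for further genes of the early response, named here after their values were seen. Nr4a1 and Nr4a2, orphan nuclear receptors of the early response, were at 303 and 411 normalized counts, whereas the other 7 mice were at 60.6 to 109 and at 38.7 to 87.6. Sik1, a kinase that restrains CREB coactivators, was at 4549, against 367 to 1087. The clock gene Per1 was at 3805, against 1231 to 2166. On the other side were Gadd45b, a stress sensor, at 16.8 against 72.5 to 312, and the zinc finger factors Klf6, at 120 against 234 to 389, and Klf10, at 345 against 581 to 1451. Of the 31 other immediate early factors tested, this mouse lay above the next mouse by more than 1.5-fold in 7 (22.6%) and below it by as much in 5 (16.1%), so that within this single liver the early genes did not move in 1 direction.

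**Figure D3:**
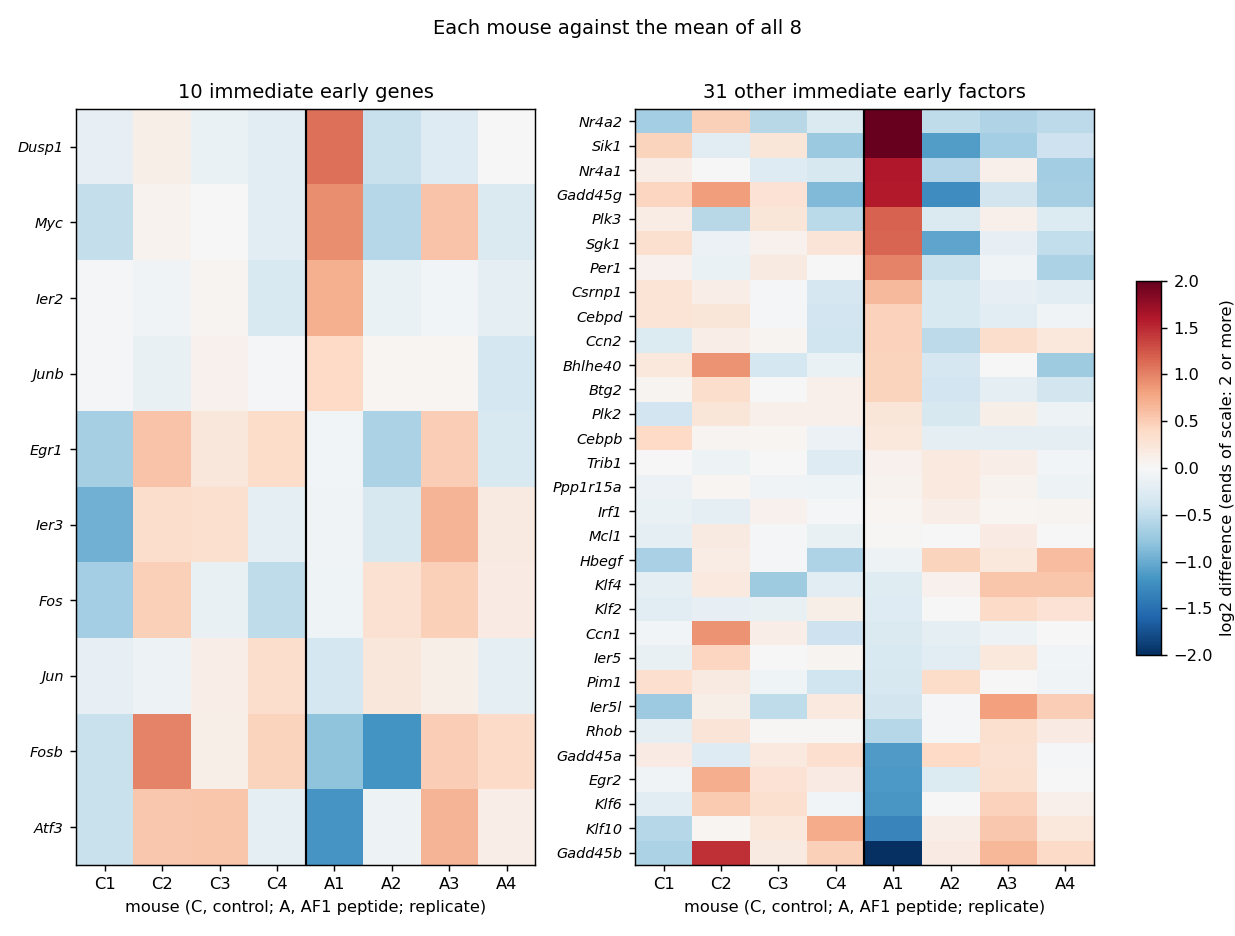
Log2 difference of each mouse (columns; C, control; A, AF1 peptide) from the mean of all 8 mice, for the 10 immediate early genes and 31 other immediate early factors, both sorted by AF1 peptide replicate 1; the colour scale ends at 2 in each direction. Column A1 runs from Nr4a2, Sik1 and Dusp1 at the top to Gadd45b and Atf3 at the bottom.

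Markers of other cells moved in this mouse too. Of 8 Kupffer cell and macrophage markers, 7 were lowest in it, and their summed normalized count was 2545, against 5536 to 6968 in control mice and at most 6639 in AF1 peptide mice. Its sum of neutrophil and monocyte markers was 106, against 227 to 328 in control mice. Its sums of endothelial, stellate cell, biliary, and erythroid and platelet markers were 6503, 3767, 804 and 27150. Control mice had at least 7147, 4820, 1193 and 34210. Of 6 T and B cell markers tested, 4 were lowest and 2 highest in replicate 1, and of 2 fat markers 1 was lowest and 1 highest. Macrophages and hepatocytes both express the immediate early genes, and the part of these cells in the values of replicate 1 was not tested. Adgre1, the F4/80 antigen of macrophages, was called lower in AF1 peptide mice (log2 fold change -0.66, limma adjusted p = 0.763) but not without replicate 1 (log2 fold change -0.45) nor without control replicate 2 or 4. The stellate cell marker Dcn was called lower as well (log2 fold change -0.42, limma adjusted p = 0.763), also without replicate 1. Its log2 fold change ranged from -0.52 to -0.25 with a mouse left out, and 6 of the 8 stellate cell markers had a positive one.

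Most members varied more between mice of one group than most genes of like level. For 9 of the 10 members the standard deviation of log2 values within groups was above the median of genes whose mean level was within 2-fold of its own, and the median member was above 86.8% of such genes. The exception was Fos, above 47.8% of them. Atf3 was above 96.6% and Dusp1 above 96.0%. Without AF1 peptide replicate 1, a check added after seeing the data, the count was again 9 of 10 and the median 88.3%, but the exception was then Ier2, above 37.3% of genes of like level, and Dusp1 was above 72.1%. For 9 of the 10 members the coefficient of variation between mice was larger in both groups than the one that counting gives, and again Fos was the exception, in the AF1 peptide group (16.4% between mice, 17.6% from counting). The lowest mouse was control replicate 1 for Fos, Egr1 and Ier3, control replicate 4 for Ier2, and AF1 peptide mice for the other 6.

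Per kilobase of exon (GENCODE M21 exon lengths), the levels of control mice fell into tiers. Jun led with 393 ± 66.7 normalized counts per kilobase (SD, n = 4), followed by Ier2 (381 ± 39.6), Junb (373 ± 25.2) and Dusp1 (303 ± 32.7). These ranges overlapped between neighbours in that order, so their order is not resolved. Myc (88.9 ± 14.9), Atf3 (84.3 ± 28.5), Ier3 (57.8 ± 21.5) and Egr1 (47.6 ± 15.3) came next, again with overlapping neighbours, and the lowest level of Dusp1 (279.5) was above the highest of Myc (103). Fos was at 12.9 ± 5.08 and Fosb at 2.92 ± 1.26, and their ranges overlapped neither each other nor Egr1. AF1 peptide mice spread wider at the top, with Dusp1 at 236 to 688.5 per kilobase. Jun, Junb and Dusp1 share 7.28%, 7.52% and 0.332% of their exon bases with Junos, Prdx2 and Ergic1 on the opposite strand, and whether the counting used strand is not given in the sources used here, so reads of these stretches cannot be assigned with certainty.

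The members were also compared with each other across the 8 mice. Of the 9 genes set against Fos, Ier3 followed it most closely (Pearson r = 0.73, exact permutation p = 0.036, adjusted p = 0.324; Spearman rho = 0.667), but r was 0.316 without control replicates 1 and 4, the 2 mice farthest from the median of Fos, so the relation rests on those mice. For values centred within each group Atf3 followed Fos most closely (r = 0.746, exact permutation p = 0.0156, adjusted p = 0.141). In neither version did any of the 9 relations have an adjusted p value under 0.05. Over all 45 pairs, 27 had a positive and 18 a negative r, the median r was 0.113, and 0 pairs had an adjusted p value under 0.05. The 2 pairs with the highest r over 8 mice had a lower r without AF1 peptide replicate 1. Ier2 and Dusp1 had r = 0.889, and 0.119 without that mouse (rho = 0.405 and 0.107). Junb and Ier2 had r = 0.801, and 0.389 without it, but their rho changed less (0.786 and 0.679).

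Without AF1 peptide replicate 1 some pairs changed and others did not. Fosb and Egr1 had r = 0.839, beside 0.774 over all 8 mice. Egr1 and Ier3 had r = 0.77 in both cases. Neither pair had an adjusted p value under 0.05 by the exact permutation test. Over the 7 mice the median r was 0.273, and 35 of the 45 pairs were positive. Ier3 and Atf3 then had r = 0.946 (exact permutation p = 0.000794, adjusted over the 45 pairs p = 0.0357; rho = 0.929), beside r = 0.65 over all 8 mice, and r stayed at 0.928 without the 2 mice farthest from the median of Ier3. It was the 1 pair with an adjusted p value under 0.05, and by Spearman's rho the smallest adjusted p value was 0.101. Within these 7 mice Myc had r = 0.856 with Atf3 (-0.176 with all 8), 0.836 with Ier3 and 0.819 with Egr1. These pairs share libraries and size factors, and the choice to leave out that mouse was made after seeing the data.

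**Figure D4:**
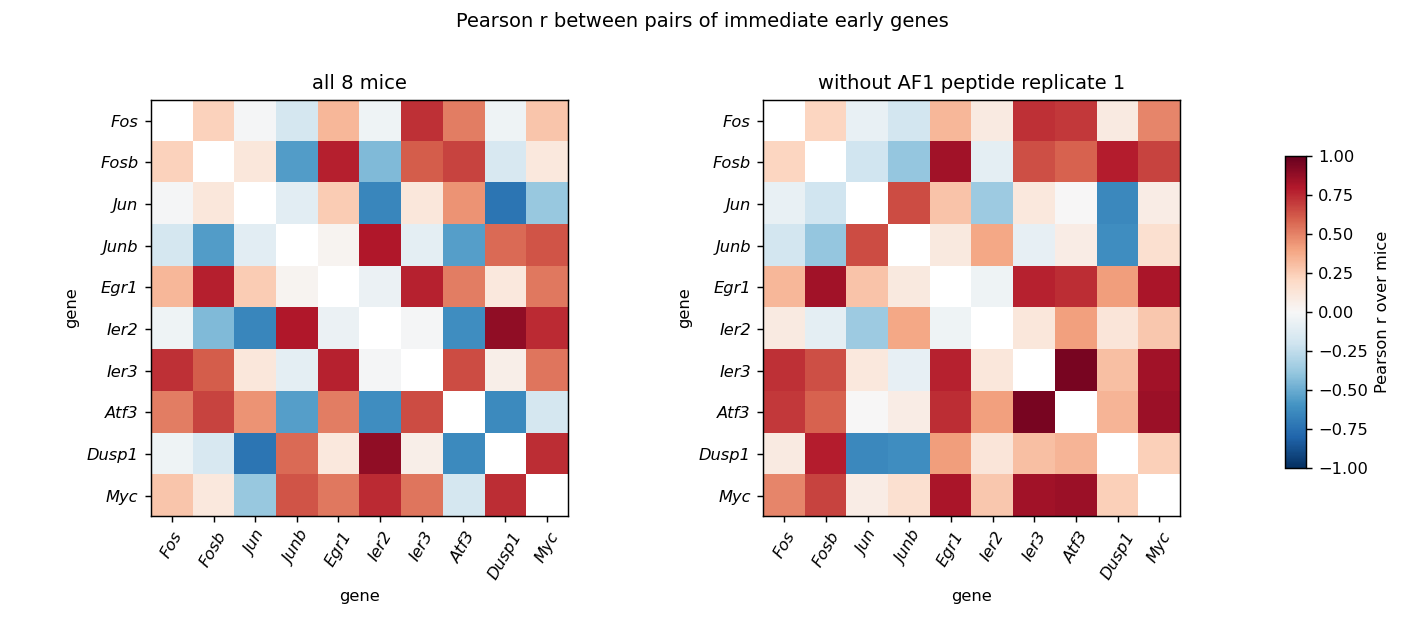
Pearson r between log2 values of every pair of the 10 immediate early genes, over all 8 mice (left) and over 7 mice without AF1 peptide replicate 1 (right). The high r of Ier2 with Dusp1 (0.889) falls to 0.119 on the right, while that of Ier3 with Atf3 rises from 0.65 to 0.946.

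Genes of the surrounding pathway were grouped into 10 lists with 176 genes, of which 171 were tested. Of these 3 were called higher and 1 lower, which is 2.34%, beside 3.69% of all genes called in either direction, and the median log2 fold change was -0.02. Of 11 other AP-1 subunits 0 were called, with a median of -0.06. Jund, the AP-1 subunit that is present without stimulation, had the smallest p value of that list. It was at 3196, 3176, 3090 and 2448 in control and at 2373, 2751, 2424 and 2471 in AF1 peptide mice (log2 fold change -0.24, limma adjusted p = 0.763). Of 31 other immediate early factors 0 were called (median -0.03), of 21 feedback inhibitors 0 (median -0.01; smallest p for Dusp8, log2 fold change -0.35, limma adjusted p = 0.773) and of 30 genes of the MAP kinase and serum response pathway 0 (median -0.04). Egfr, the receptor upstream of that pathway, was at 1109 in AF1 peptide replicate 1 and at 277 to 420 in the other 7 mice. Of 9 MYC partners 0 were called (median -0.08), with Mlx at a log2 fold change of -0.37 that was under 1.3-fold. The 12 ATF4 and ATF3 stress genes (median -0.13; Ddit4, log2 fold change -0.34), 15 hypoxia-responsive genes (median -0.05; Pdk1, log2 fold change -0.24) and 12 acute heat shock genes (median 0.06) held 0 calls each. Hsf1, the heat shock factor itself, had a log2 fold change of 0.29 (limma adjusted p = 0.763), also under 1.3-fold.

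Of 16 MYC targets 1 was called lower, Ccnd1, the cyclin that carries growth signals into the cell cycle. Ccnd1 was at 213, 349, 250 and 351 normalized counts in control and at 104, 104, 217 and 252 in AF1 peptide mice (log2 fold change -0.86, SE 0.31, limma adjusted p = 0.763). Npm1, a nucleolar protein, was below all control mice in each AF1 peptide mouse (1545 to 1849 against 1895 to 2197), with a log2 fold change of -0.28 (limma adjusted p = 0.763) that was under 1.3-fold. The call of Ccnd1 was lost without control replicate 2 or 4 or AF1 peptide replicate 2. The median over the 16 targets was 0.01.

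The calls in the higher direction were 3 of 14 glucocorticoid-responsive genes, against 1.79% of all genes, with a list median of 0.23. Fkbp5, a co-chaperone that damps the glucocorticoid receptor, was at 594, 595, 657 and 701 normalized counts in control and at 1136, 760, 758 and 771 in AF1 peptide mice. The groups did not overlap (log2 fold change 0.41, SE 0.14, limma adjusted p = 0.763). Zbtb16, a transcriptional repressor, was at 155, 249, 78.9 and 147 in control and at 426, 310, 204 and 265 in AF1 peptide mice (log2 fold change 0.99, SE 0.32, limma adjusted p = 0.763). The clock gene Per2 was at 2069, 1818, 2396 and 2808 in control and at 3100, 2910, 3430 and 2439 in AF1 peptide mice (log2 fold change 0.39, SE 0.15, limma adjusted p = 0.763). For both, the lowest AF1 peptide mouse was below the highest control. Without AF1 peptide replicate 1 the list held 1 call higher, Zbtb16, and 1 lower, Tat. Fkbp5 then had a log2 fold change of 0.26 (limma adjusted p = 0.476) and Per2 one of 0.37 (limma adjusted p = 0.486), both under 1.3-fold. With libraries scaled to equal totals Zbtb16 was the 1 gene of the 3 still called. The call of Per2 was also lost without control replicate 1 or 2 or AF1 peptide replicate 3. Over the whole list 9 genes had a positive and 5 a negative log2 fold change, and the list median was 0.11 without AF1 peptide replicate 1.

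Other genes of the early response passed the test when AF1 peptide replicate 1 was left out, an alternative chosen after seeing the data. Without it, 3 of the 31 other immediate early factors were called higher (Hbegf, Ier5l and Klf4) and 5 lower (Btg2, Gadd45g, Per1, Sgk1 and Sik1), beside 2.86% and 3.04% of all genes in that fit. The limma adjusted p values of these 8 genes were 0.452 to 0.486. Sgk1, a kinase induced by serum and glucocorticoids, was at 359, 265, 307 and 343 in control mice and at 139, 256 and 205 in AF1 peptide replicates 2 to 4, all below the controls, but at 650 in replicate 1 (log2 fold change -0.27 with it, -0.70 without it, limma adjusted p = 0.452). Btg2, an antiproliferative factor, was at 269 to 349 in control mice, at 208, 240 and 210 in replicates 2 to 4, and at 370 in replicate 1 (log2 fold change -0.24 and -0.43, limma adjusted p = 0.452 without it).

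Sik1 and the liver enzyme Tat, which breaks down tyrosine, were also highest in replicate 1. Unlike Sgk1 and Btg2, they overlapped the control range in replicates 2 to 4. Sik1 was at 1087, 680, 944 and 476 in control mice, at 367, 496 and 601 in replicates 2 to 4 and at 4549 in replicate 1 (log2 fold change 0.15 with it and -0.67 without it, limma adjusted p = 0.478). Tat was at 7551 to 23830 in control mice, at 8951, 6311 and 9220 in replicates 2 to 4 and at 68710 in replicate 1 (log2 fold change 0.03 and -0.74, limma adjusted p = 0.486 without it). Errfi1, a feedback inhibitor of EGFR, was called lower without replicate 1 as well (log2 fold change -0.38, limma adjusted p = 0.486). Hbegf, a ligand of EGFR, went the other way, at 13.2, 23.6, 20.54 and 13.4 in control and at 29.2, 24.7 and 33.1 in replicates 2 to 4, with 19.6 in replicate 1 (log2 fold change 0.58, and 0.72 without it, limma adjusted p = 0.486). Dusp1, at 782 to 1058 in replicates 2 to 4 and 925 to 1163 in control mice, had the sign of Sik1 and Tat in both fits, and it was called in neither. Whether replicate 1 or the other 3 mice show the usual state of AF1 peptide livers cannot be told from 4 mice.

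**Figure D5:**
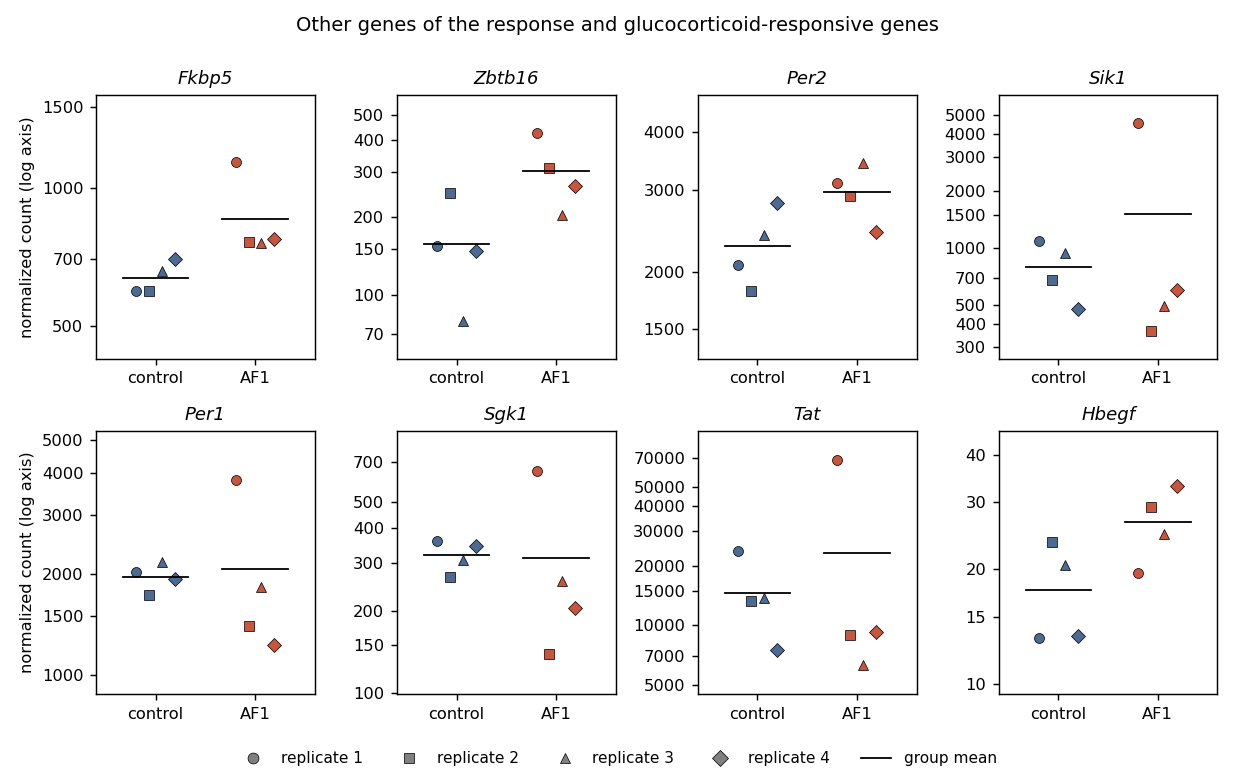
Normalized count (log axis) of 8 further genes in every mouse; symbols give the replicate number and lines the arithmetic mean of 4 mice. For Fkbp5 all AF1 peptide mice lie above the controls, while for Sik1, Per1, Sgk1 and Tat replicate 1 (circle) lies above all other mice and the remaining AF1 peptide mice lie under the control mean.

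The genes outside all lists whose level across the 8 mice was most like the mean z-score of the 10 members were Tsen54 (Pearson r = 0.964), Ifitm1 (0.930), Actn4 (0.908), Wipf2 (0.906), Dbn1 (0.889), Fes (0.888), Tead2 (0.882) and Tanc2 (0.881), out of 12239 genes with a mean of at least 50. The mean z-score itself was -0.83, 0.42, 0.27 and -0.09 in control and 0.34, -0.44, 0.62 and -0.28 in AF1 peptide mice. The log2 fold changes of these 8 genes lay between -0.02 and 0.09. They are the top of a ranking of 12239 genes over only 8 mice, and their r was not tested against chance.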

How the data were processed

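Liver RNA of 8 mice, 4 control and 4 AF1 peptide, was sequenced from stranded mRNA libraries. The authors used Trim Galore 0.6.7 for trimming, HISAT2 for alignment (to mm39 per the submitters' processing notes), SAMtools 1.17 for sorting and GenomicAlignments for counting, and the annotation and the use of strand are not given in the sources used here. The values the authors deposited are a signal per gene and mouse, reads divided by 1 size factor per library, and all 172256 values came out as whole reads within a tolerance of 0.02 after multiplication by it. Recovered reads numbered 23031880 to 45117528 per mouse, and counting error alone was given as a coefficient of variation.

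Group differences in log2(normalized count + 1) were estimated by limma 3.58.1 (R 4.3.3, variance trend) over 15989 genes with a mean of at least 10, with p values adjusted over all of them by the Benjamini-Hochberg method. The call rule followed the study's thresholds, an unadjusted p value under 0.05 together with a change beyond 1.3-fold. For low genes the added 1 makes the fold change too small. The test was run on simulated counts first. Groups and replicate numbers came from the sample labels, which do not say more about how mice were housed or processed, so p values cover the spread between these mice. No 2 libraries of a group agreed within sampling noise (chi-square per degree of freedom 14.6 to 312). Named genes are the 10 members, the called genes of each other list and the smallest p value of each pathway list. Others are the 8 genes most like the members, some cell type markers, and genes said to be named after their values were seen. The members and lists were chosen with earlier results of these data known. Alternatives were pseudocounts of 0.5 and 5, 2 filters, TMM and equal-total scaling, a limma fit with no trend or with unmoderated variances, a block for the replicate number, count models on the recovered reads (DESeq2 1.42.0, edgeR 4.0.16), and each mouse left out. Pair correlations used Python 3.11.15 and exact permutations.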

Additional observations from a re-analysis of the deposited data

Results flagged for a closer look

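For each group of 4 mice Dixon's ratio, the gap from the most extreme mouse to its neighbour as a share of the whole range, was set against its 95% critical value. Of 88 groups tested 12 were above it, and AF1 peptide replicate 1 was the mouse in 5 of them. Independent, unselected groups would give 4.4. These groups share the same mice and include genes named for their values in these data, so the count was not tested against chance. They leave out other genes named above, such as Nr4a2, so 5 is not a count over all genes discussed. Among the 10 immediate early genes the 1 such gene was Ier2, with AF1 peptide replicate 1 as the highest of its group (ratio 0.866).

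AF1 peptide replicate 1 was also the highest AF1 peptide mouse for Egfr (0.847), Fkbp5 (0.956) and the first principal component of all genes (0.843), and the lowest for the macrophage marker Adgre1 (0.844). AF1 peptide replicate 2, the mouse with the fewest reads, was the lowest for the monocyte marker Ly6c2 (0.9). Among control mice, replicate 1 was the lowest for the endothelial marker Lyve1 (0.989), Fes (0.924) and Tanc2 (0.931) and had the most recovered reads (0.857). Control replicate 2 was the highest for Dusp8 (0.919), and control replicate 4 was the lowest for Jund (0.874). Causes of these values were not tested.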

How the results depend on the processing

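None of the members was called in any setting except Fos without control replicate 2, so the count called higher ranged from 0 to 1 and the count called lower was 0 with each mouse left out. The median log2 fold change of the members was 0.0217 to 0.167 over the other settings and -0.0217 to 0.198 with a mouse left out. Of 109 values of single members under other settings, 108 kept their direction and their side of the threshold; the exception was Junb, at -0.033 with equal library totals, a scaling that moved the median of all genes to -0.0987. Over all genes the calls, 286 higher and 304 lower, were 122 and 602 under that scaling, 435 and 459 with no filter, 214 and 197 with each gene's own variance, and 201 to 457 and 172 to 486 with a mouse left out. Of 80 values of single members with a mouse left out, 74 kept both direction and side. Signs turned within the ranges -0.067 to 0.19 for Junb, -0.041 to 0.25 for Ier2, -0.050 to 0.39 for Ier3, -0.51 to 0.11 for Atf3 and -0.15 to 0.37 for Dusp1. The others kept their sign, within 0.27 to 0.66 for Fos, -0.82 to -0.26 for Fosb, -0.19 to -0.00096 for Jun, -0.51 to -0.079 for Egr1 and 0.062 to 0.57 for Myc.

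The listed pathway genes called lower, 1 in the reported fit, were 2 with no filter and with TMM scaling, 4 with equal library totals, 0 with each gene's own variance, 3 with edgeR and DESeq2, and 1 to 11 with a mouse left out, the 11 without AF1 peptide replicate 1. Those called higher, 3 in the reported fit, were 1 with equal library totals, 6 with edgeR, and 1 to 5 with a mouse left out. Pairs of members at an adjusted p value under 0.05 went from 0 to 1 without AF1 peptide replicate 1. The causes of these shifts were not tested.

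Same-numbered mice are different mice, so the reported fit did not pair them. Their deviations correlated at 0.235, 0.0238, 0.216 and -0.064, beside -0.272 to 0.137 for mice of different numbers. The highest values, 0.235 and 0.216, were of same-numbered mice, and whether the numbers mark a shared batch was not tested. With the replicate number as a block, 0 members were called (smallest adjusted p = 0.659), 6 listed pathway genes were higher and 4 lower, and genes with an unadjusted p value under 0.05 went from 990 to 1244; not every mouse correlated best with its own number. Fos and Fosb had the fewest reads, and counting alone gives them a coefficient of variation of 17.6% and 31.3%; how far depth rather than mice sets their intervals was not tested.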
